A study of Mus musculus with 20 samples.

Results

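The mammalian DNA replication machinery was followed through the RNA of its parts in bone-marrow-derived macrophages, the phagocytes that grow out of marrow cells under the growth factor CSF-1. The set held 45 genes, chosen by symbol as known components of origin licensing, the helicase, the polymerases, the clamp and its loader, fork protection and the steps that follow at the fork. The choice was made with earlier results of these data known. Every one of the 45 symbols was found among the 51456 gene symbols of each deposited table. The mice were C57BL/6 and 4 to 5 months old. The libraries formed 3 genotypes by label: the R47H substitution knocked into Trem2 (R47H, 5 libraries), a 5 bp knockout of Trem2 (KO, 5 libraries), and wild type (WT, 10 libraries). Trem2 encodes a surface receptor for lipids that is carried by macrophages and by the microglia of the brain. Per the labels, adherent macrophages were taken after 6 days with 50 ng/ml CSF-1 from 5 animals per genotype, and the wild-type animals were littermates of the mutants. Whether the 10 WT libraries came from 10 animals, and which belongs to which mutant line, was not stated, so the WT spread may be partly technical.

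Replication starts when the origin recognition complex, Cdc6 and Cdt1 load the MCM2-7 ring onto DNA in G1 phase. Cdc45 and GINS then turn that ring into the working helicase, polymerase alpha and primase lay down primers, and polymerases delta and epsilon extend them while held by the PCNA ring that RFC loads. Many of these genes are transcribed as cells pass from G1 into S phase, so their RNA is known to be plentiful in dividing cells and scarce in resting ones. Marrow precursors divide in CSF-1 before and while they become macrophages.

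The targeted gene was measured first. Trem2 had 673, 772, 794, 496 and 527 FPKQ in R47H libraries (Rep1 to Rep5), 24.1, 23.7, 24.8, 24.1 and 23.8 FPKQ in KO libraries and 691, 811 and 901 FPKQ as the lowest, median and highest of the WT libraries. FPKQ is the deposited unit, whose definition was not given in the sources used here, and it was handled as a level per transcript length. All KO libraries lay far below the others, and R47H Rep1, Rep4 and Rep5 lay below every WT library. The log2 difference was -0.33 in R47H (exact two-sided permutation test, p = 0.00833) and -5.00 in KO (p = 0.000333, the smallest that 3003 splits can give). The R47H difference did not pass against WT Rep6 to Rep10 alone (p = 0.135). The macrophage genes Csf1r, Lyz2, Adgre1 and Cd68 were abundant in every group, Csf1r averaging 1085 ± 116 FPKQ in R47H, 1308 ± 55.0 FPKQ in KO and 935 ± 40.3 FPKQ in WT (SD, n = 5, 5 and 10). Of 8 macrophage markers, 2 were lower and 4 higher in R47H, and 3 lower and 4 higher in KO (limma). Among all tested genes 7.83% were lower and 13.4% higher in R47H, and 23.7% lower and 28.2% higher in KO. Cd14, a co-receptor for lipopolysaccharide, was at -0.32 ± 0.09 in R47H and -1.26 ± 0.09 in KO on the log2 scale, Itgam, an integrin chain, at -0.41 ± 0.08 in R47H and -0.55 ± 0.08 in KO, and Mertk, a receptor for dying cells, at 0.84 ± 0.12 in R47H and 1.84 ± 0.12 in KO, all 6 differences past the threshold, and the part of these changes in the results below was not tested. Depth was read from genes whose low values are whole fragments: a level of 1 FPKQ in a 2 kb transcript stood for 46.4 to 70.7 fragments per library, so members under about 1 FPKQ carry the most counting error.

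Replication genes fell together in both mutants, and further in KO than in R47H. The level filter, 1 FPKQ on average across the 20 libraries, was reached by 44 of the 45 members, Orc1 being below it, and these were fitted with limma among 10843 genes on the log2(FPKQ + 1) scale, a call being an adjusted p under 0.05. In R47H against WT, 38 of the 44 members were lower, 0 higher and 6 did not pass, where 7.83% of all tested genes were lower and 13.4% higher. In KO against WT, 41 were lower, 0 higher and 3 did not pass, against 23.7% lower and 28.2% higher among all tested genes. The median log2 fold change of the tested members was -0.51 in R47H and -1.03 in KO, beside 0.04 and 0.01 for all tested genes. Every R47H library lay below every WT library for 28 members, where 3.14% of tested genes did so, and every KO library did for 38, where 13.3% did so. Both mutants were compared with the same 10 WT libraries, so the paired counts are not independent of each other. In bulk RNA, fewer dividing cells and less of these transcripts per cell cannot be told apart.

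**Figure D1:**
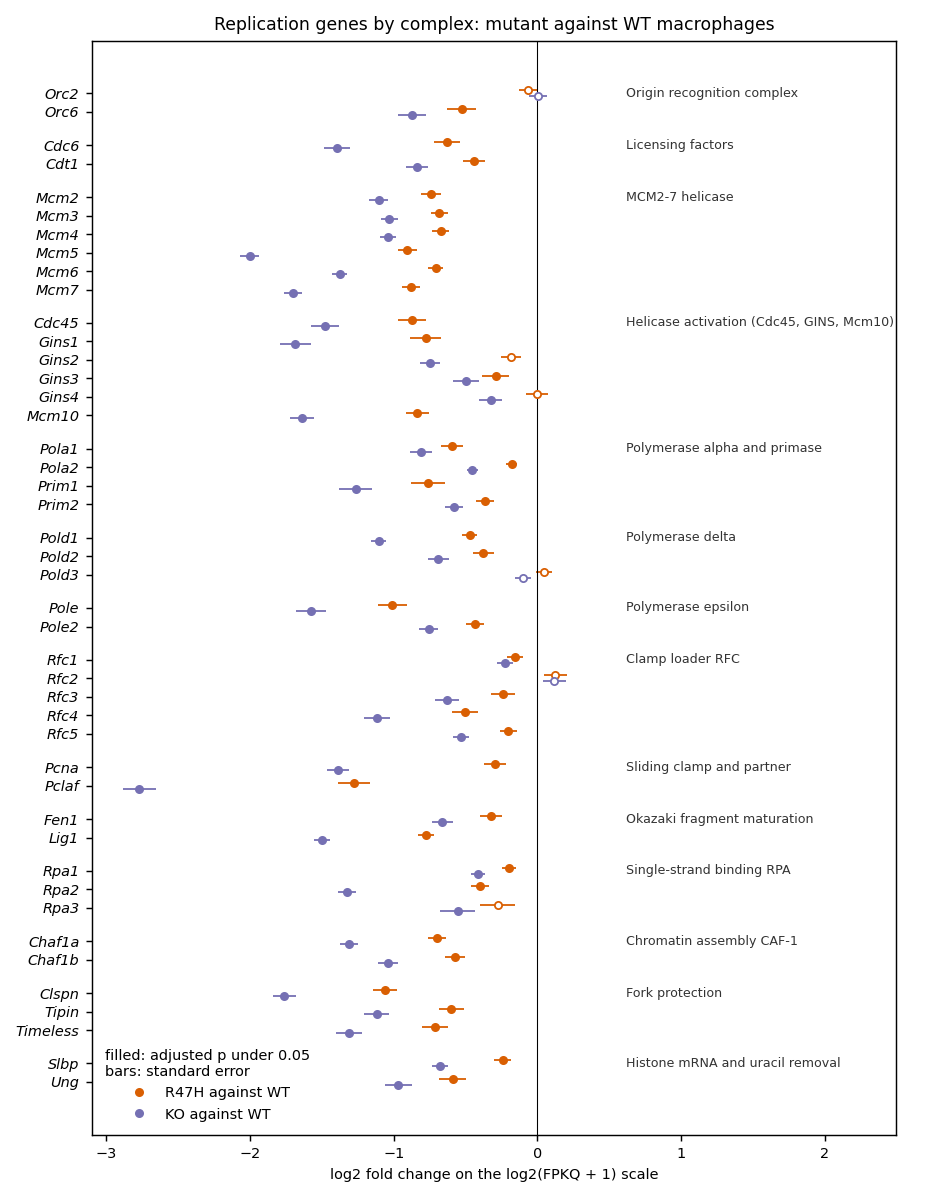
Log2 fold change on the log2(FPKQ + 1) scale (x axis) of the 44 tested replication genes, grouped by complex down the page, for R47H against WT (orange, upper point) and KO against WT (violet, lower point). Points are limma estimates, bars their standard errors, and filled points passed an adjusted p under 0.05; most pairs lie left of 0 with the KO point further left, and Orc2, Pold3 and Rfc2 have both points open.

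In the sentences on single genes, the 5 values given for R47H and for KO are Rep1 to Rep5 of that group, the 3 values given for WT are the lowest, the median and the highest of its 10 libraries, and each ± on a log2 fold change is its standard error. Counts of genes called lower within a complex stand beside 7.83% of all tested genes in R47H and 23.7% in KO. The helicase itself shows the general pattern. All 6 MCM2-7 genes, which encode the ring that unwinds DNA ahead of the fork, fell in both mutants with no overlap between mutant and WT libraries. Their summed level was 107 ± 8.08 FPKQ in R47H and 68.6 ± 2.597 FPKQ in KO, against 185 ± 11.1 FPKQ in WT (SD, n = 5, 5 and 10), or 58.1% and 37.2% of WT. Mcm5 had 15.5, 12.2, 15.2, 12.7 and 12.8 FPKQ in R47H, 5.79, 5.26, 5.88, 5.61 and 6.68 FPKQ in KO and 23.0, 26.5 and 28.6 FPKQ in WT. Mcm5 fell to 51.7% of its WT mean in R47H and 22.1% in KO, log2 fold changes of -0.91 ± 0.06 and -2.003 ± 0.06 (limma, adjusted p = 7.27e-09 and 1.42e-15). Mcm5 moved furthest of the 6 and the 3 groups were fully separate, with R47H Rep1 and Rep3 the highest of the R47H libraries. Mcm3 had 21.3, 17.6, 22.1, 19.8 and 18.2 FPKQ in R47H, 15.9, 15.5, 14.3, 15.6 and 15.2 FPKQ in KO and 28.4, 32.9 and 37.9 FPKQ in WT. Mcm3 fell to 61.2% of its WT mean in R47H and 47.3% in KO, log2 fold changes of -0.68 ± 0.06 and -1.03 ± 0.06 (limma, adjusted p = 5.94e-08 and 4.23e-12). Mcm3 moved least of the 6 in KO, yet its 3 groups did not overlap either. The other members, Mcm2, Mcm4, Mcm6 and Mcm7, lay at 57.4%, 60.9%, 60.6% and 52.4% of WT in R47H and at 43.0%, 46.1%, 37.6% and 27.9% in KO. WT Rep10 was the lowest WT library for each of the 6.

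Because the 6 subunits did not fall by one factor, their order by level changed. Mcm6 was the most abundant in each group, with means of 39.97 ± 2.35 FPKQ in R47H, 24.8 ± 2.05 FPKQ in KO and 65.9 ± 3.56 FPKQ in WT. Mcm5 ranked behind Mcm6 and Mcm3 in R47H and in WT, at 13.7 ± 1.56 and 26.4 ± 1.98 FPKQ, and was the lowest of the 6 in KO at 5.84 ± 0.523 FPKQ, although there it lay within the spread of Mcm2 (6.38 ± 0.738 FPKQ) and close to Mcm7 (6.84 ± 0.629 FPKQ). Within a library, Mcm5 ran at 69.0 ± 3.05% of Mcm3 in R47H, 38.3 ± 4.14% in KO and 81.8 ± 4.69% in WT, and no library of one group overlapped another. Mcm7 over Mcm3 was 65.0 ± 2.05% in R47H, 44.8 ± 4.28% in KO and 75.9 ± 2.96% in WT. These 2 ratios were picked after their values were seen and were not tested.

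Letters are shown for helicase and primer genes with the E2F motif in the 180 bases before the start, if no GENCODE exon overlaps them. Mcm3, Mcm7 and Gins3 also hold a match but did not meet this rule. E2F factors are the known G1 to S regulators of this gene class. The motif was searched as TTTCCCGC or TTTGGCGC on both strands of the RefSeq promoter windows (GRCm38.p6, 250 bases before to 50 after each start). Mcm5 is ENSMUSG00000005410, chr8:75109569-75128439, Mcm6 is ENSMUSG00000026355, chr1:128331590-128359664 and Pola1, the catalytic subunit of polymerase alpha, is ENSMUSG00000006678, chrX:93304767-93632155 in GENCODE M21 on GRCm38. The runs below give the 180 bases before the RefSeq start, 5′ to 3′ on the gene's strand, with the motif in capitals. In Mcm5 and Pola1 the capitals read as the reverse complement because the match is on the other strand.
Mcm5, chr8:75109329-75109508, plus strand: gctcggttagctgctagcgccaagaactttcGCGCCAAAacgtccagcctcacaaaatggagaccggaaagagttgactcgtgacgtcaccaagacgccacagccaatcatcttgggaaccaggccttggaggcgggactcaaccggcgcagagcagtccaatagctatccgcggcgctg
Mcm6, chr1:128359706-128359885, minus strand: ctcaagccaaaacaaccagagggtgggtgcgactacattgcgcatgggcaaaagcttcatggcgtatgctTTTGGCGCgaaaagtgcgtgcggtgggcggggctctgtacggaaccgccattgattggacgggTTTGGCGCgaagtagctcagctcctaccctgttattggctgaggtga
Pola1, chrX:93632156-93632335, minus strand: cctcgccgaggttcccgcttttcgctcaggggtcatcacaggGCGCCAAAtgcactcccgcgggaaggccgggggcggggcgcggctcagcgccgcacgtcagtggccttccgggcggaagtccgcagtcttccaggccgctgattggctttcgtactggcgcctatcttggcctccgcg
Mcm6 holds 2 matches and the others 1 each. The motif was present in 13 of the 37 members with a window (35.1%), beside 3.62% of the 8343 tested genes with a window and 1.8% of all 27025 genes with one. The 13 members were Mcm3, Mcm5, Mcm6, Mcm7, Cdc6, Cdt1, Gins3, Pola1, Pold1, Pold3, Pole2, Rfc3 and Pclaf. Fold changes stood side by side in members with and without a match: 12 of 13 with a match were called lower in KO, the median of their log2 fold changes being -1.03, and 22 of 23 without, with a median of -1.04. The share of all tested genes called lower in KO was 23.7%. The CCAAT box (CCAAT, either strand) was in 64.9% of members and 43.4% of tested genes, and the CHR element of cell-cycle promoters (TTTGAA or TTCGAA, either strand) in 18.9% and 16.7%. A match describes letters in a window and not binding. Only the exact letters given were searched, so members without an E2F match may hold other forms of the site.

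**Figure D2:**
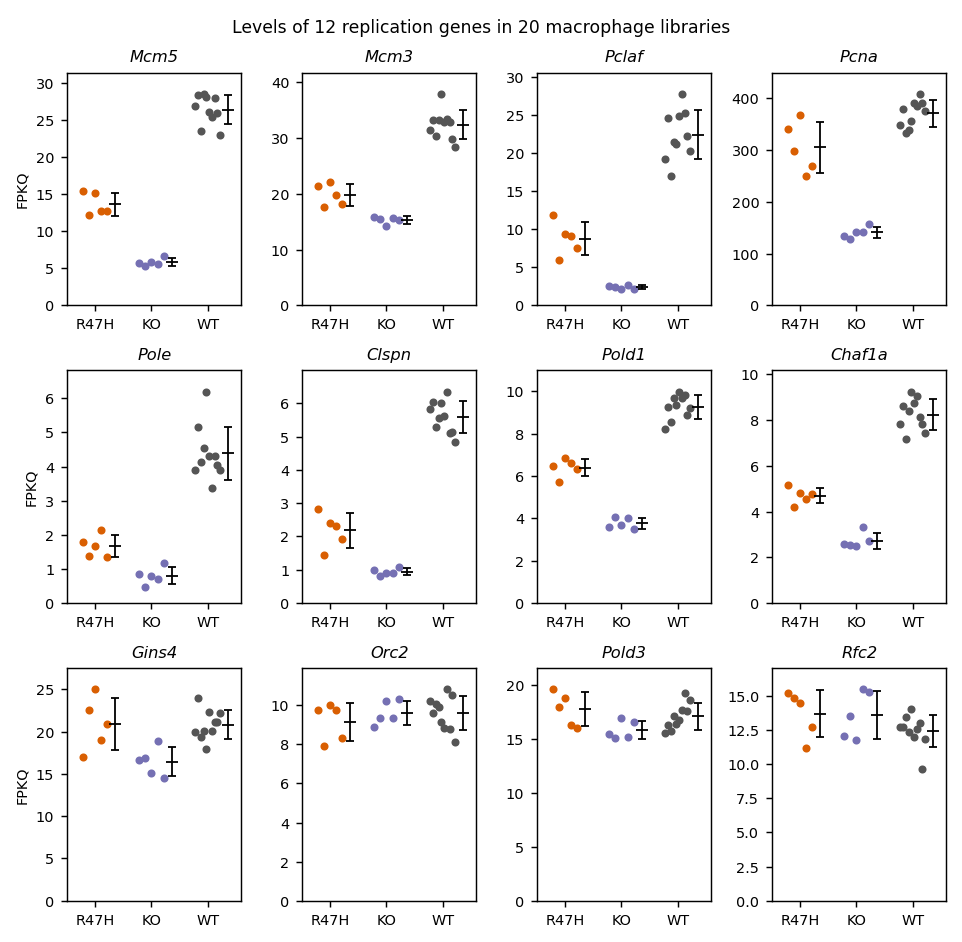
FPKQ (y axes, from 0) of 12 replication genes in each library of R47H, KO and WT, with the group mean and SD as a black bar beside the points (n = 5, 5 and 10). In the upper panels the 3 groups stand apart or nearly so, KO lowest, and in the panels of Gins4, Orc2, Pold3 and Rfc2 the groups overlap.

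Upstream of the ring, the subunits that mark and license origins split. Orc2 and Orc6 belong to the origin recognition complex, which marks origins. Orc6 had 11.5, 9.53, 12.1, 7.53 and 8.23 FPKQ in R47H, 6.46, 8.17, 9.19, 6.33 and 7.02 FPKQ in KO and 12.1, 14.3 and 16.4 FPKQ in WT. Orc6 fell to 68.0% of its WT mean in R47H and 51.7% in KO, log2 fold changes of -0.53 ± 0.10 and -0.87 ± 0.10 (limma, adjusted p = 0.000504 and 1.73e-07). No mutant library of Orc6 reached the lowest WT library, while R47H and KO overlapped. Orc2 had 9.74, 7.90, 10.0, 9.77 and 8.31 FPKQ in R47H, 8.87, 9.35, 10.2, 9.35 and 10.3 FPKQ in KO and 8.10, 9.76 and 10.8 FPKQ in WT. All 3 groups of Orc2 overlapped and neither contrast passed, with log2 fold changes of -0.06 ± 0.06 in R47H (95% interval -0.20 to 0.07; limma, adjusted p = 0.529) and 0.01 ± 0.06 in KO (-0.13 to 0.14; adjusted p = 0.953). Orc1 had 0.989, 0.498, 0.625, 0.599 and 0.489 FPKQ in R47H, 0.199, 0.242, 0.296, 0.238 and 0.143 FPKQ in KO and 0.772, 1.08 and 1.59 FPKQ in WT. Orc1, the subunit known to vary through the mammalian cell cycle, was scarce throughout and lowest in KO, where no library reached any R47H or WT library. It failed the level filter, and in a fit without that filter its log2 fold change was -0.37 ± 0.08 in R47H and -0.79 ± 0.08 in KO (limma, adjusted p = 0.00599 and 3.30e-07).

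Cdc6 and Cdt1 load MCM2-7 together with the origin recognition complex, and both fell. Cdc6 had 2.65, 1.62, 2.88, 2.39 and 1.70 FPKQ in R47H, 1.02, 0.881, 0.798, 0.883 and 0.875 FPKQ in KO and 3.25, 3.92 and 4.77 FPKQ in WT. Cdc6 fell to 56.3% of its WT mean in R47H and 22.4% in KO, log2 fold changes of -0.63 ± 0.09 and -1.39 ± 0.09 (limma, adjusted p = 2.67e-05 and 2.73e-11). The 3 groups of Cdc6 did not overlap, with R47H Rep2 and Rep5 nearest to KO. Cdt1 had 17.1, 21.3, 25.2, 20.5 and 17.7 FPKQ in R47H, 14.8, 15.0, 14.3, 14.0 and 17.7 FPKQ in KO and 24.2, 27.4 and 31.1 FPKQ in WT. Cdt1 fell to 73.1% of its WT mean in R47H and 54.4% in KO, log2 fold changes of -0.44 ± 0.08 and -0.84 ± 0.08 (limma, adjusted p = 0.000238 and 7.49e-09). Cdt1 in R47H Rep3 lay within the WT range, and KO Rep5 stood above the other KO libraries and reached the lower R47H ones. In GENCODE the Cdt1 gene is overlapped on its own strand by the coding gene model Gm20388, so how fragments were shared between them is uncertain.

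Conversion of the loaded ring into an active helicase needs Cdc45, the 4 GINS subunits and Mcm10. Here 4 of 6 genes were lower in R47H and 6 of 6 in KO, beside 7.83% and 23.7% of all tested genes. Gins1 had 5.26, 5.34, 8.06, 3.73 and 4.95 FPKQ in R47H, 3.13, 2.33, 1.96, 2.57 and 1.99 FPKQ in KO and 8.25, 9.87 and 11.4 FPKQ in WT. Gins1 fell to 55.4% of its WT mean in R47H and 24.2% in KO, log2 fold changes of -0.78 ± 0.11 and -1.69 ± 0.11 (limma, adjusted p = 2.07e-05 and 2.59e-11). Gins1 was separated in all 3 groups, R47H Rep3 coming closest to WT. Cdc45, the helicase cofactor, averaged 2.64 ± 0.573 FPKQ in R47H, 1.37 ± 0.289 FPKQ in KO and 5.61 ± 0.726 FPKQ in WT, and Mcm10 2.52 ± 0.452 FPKQ in R47H, 1.01 ± 0.183 FPKQ in KO and 5.26 ± 0.550 FPKQ in WT (SD). GINS is a complex of 4 different subunits, yet the 4 transcripts did not move alike. Gins2 had 10.5, 9.88, 11.7, 8.51 and 8.10 FPKQ in R47H, 5.63, 5.85, 7.59, 5.92 and 6.25 FPKQ in KO and 10.2, 11.1 and 11.8 FPKQ in WT. Gins2 did not pass in R47H (log2 -0.18 ± 0.07; limma, adjusted p = 0.0671) and fell in KO (log2 -0.75 ± 0.07; adjusted p = 1.02e-08). R47H and WT libraries of Gins2 overlapped, and every KO library lay below them. The R47H difference of Gins2 passed without R47H Rep3 (adjusted p = 0.0130), without KO Rep3 (0.0433) and at equal library sums (0.00141). Gins3 had 4.31, 3.18, 2.55, 3.61 and 4.03 FPKQ in R47H, 2.26, 3.50, 3.26, 2.78 and 2.77 FPKQ in KO and 3.88, 4.36 and 5.49 FPKQ in WT. Gins3 fell to 78.3% of its WT mean in R47H and 64.5% in KO, log2 fold changes of -0.29 ± 0.09 and -0.50 ± 0.09 (limma, adjusted p = 0.0277 and 0.000106). Gins3 overlapped between R47H and WT, and the R47H call was lost against either WT Rep1 to Rep5 or WT Rep6 to Rep10 (adjusted p = 0.102 and 0.0793) and without R47H Rep2 or Rep3 (0.0801 and 0.111). Gins4 had 16.96, 22.6, 25.0, 19.1 and 20.9 FPKQ in R47H, 16.6, 16.9, 15.2, 18.9 and 14.5 FPKQ in KO and 17.9, 20.6 and 24.0 FPKQ in WT. Gins4 moved least of the 6: the R47H difference was -0.00 ± 0.08 (95% interval -0.16 to 0.16; limma, adjusted p = 0.984), while the KO libraries, overlapping WT, differed by -0.33 ± 0.08 on the log2 scale (adjusted p = 0.00123).

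Polymerase alpha with primase makes the RNA and DNA primers, and all 4 of its genes were lower in both mutants. Prim1 had 5.45, 3.12, 4.40, 5.56 and 5.75 FPKQ in R47H, 2.39, 2.91, 4.70, 2.93 and 2.75 FPKQ in KO and 7.42, 8.73 and 10.4 FPKQ in WT. Prim1 fell to 55.0% of its WT mean in R47H and 35.5% in KO, log2 fold changes of -0.76 ± 0.12 and -1.26 ± 0.12 (limma, adjusted p = 6.22e-05 and 8.34e-09). Prim1, the catalytic primase subunit, had its highest KO value in Rep3, inside the R47H range, and stayed below WT in every mutant library. Prim2 had 7.60, 7.75, 7.73, 5.93 and 7.33 FPKQ in R47H, 5.55, 6.09, 6.65, 5.93 and 6.26 FPKQ in KO and 8.39, 10.1 and 10.5 FPKQ in WT. Prim2 fell to 75.4% of its WT mean in R47H and 63.2% in KO, log2 fold changes of -0.37 ± 0.06 and -0.58 ± 0.06 (limma, adjusted p = 0.000254 and 1.14e-07). Prim2, the primase accessory subunit, was close together in the R47H libraries except Rep4, which matched the KO values. Pola2 had 11.3, 10.9, 10.5, 11.1 and 11.3 FPKQ in R47H, 9.08, 9.37, 8.86, 9.03 and 8.44 FPKQ in KO and 12.2, 12.5 and 13.8 FPKQ in WT. Pola2 fell to 87.3% of its WT mean in R47H and 70.9% in KO, log2 fold changes of -0.18 ± 0.04 and -0.45 ± 0.04 (limma, adjusted p = 0.000996 and 8.37e-10). Pola2, the accessory subunit, moved least of the 4, and with the narrow spread of its libraries the 3 groups still did not overlap. Pola1, the catalytic subunit, averaged 3.45 ± 0.6004 FPKQ in R47H, 2.81 ± 0.330 FPKQ in KO and 5.68 ± 0.492 FPKQ in WT (SD), with both falls past the threshold.

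Polymerase delta, the main lagging-strand enzyme, was divided between its subunits. Pold1 had 6.46, 5.74, 6.85, 6.59 and 6.35 FPKQ in R47H, 3.58, 4.06, 3.68, 4.00 and 3.51 FPKQ in KO and 8.22, 9.29 and 9.98 FPKQ in WT. Pold1 fell to 69.1% of its WT mean in R47H and 40.7% in KO, log2 fold changes of -0.47 ± 0.05 and -1.11 ± 0.05 (limma, adjusted p = 6.23e-07 and 1.37e-13). Pold1, the catalytic subunit, separated the 3 groups completely. Pold2 had 6.56, 7.48, 7.71, 6.33 and 5.19 FPKQ in R47H, 5.43, 5.58, 4.06, 4.97 and 5.70 FPKQ in KO and 8.09, 8.76 and 9.69 FPKQ in WT. Pold2 fell to 74.9% of its WT mean in R47H and 58.0% in KO, log2 fold changes of -0.38 ± 0.07 and -0.69 ± 0.07 (limma, adjusted p = 0.000695 and 6.57e-08). Pold2, an accessory subunit, was below WT in every mutant library, with R47H and KO overlapping at R47H Rep5. Pold3 had 19.6, 18.0, 18.8, 16.2 and 16.0 FPKQ in R47H, 15.4, 15.1, 16.9, 15.1 and 16.6 FPKQ in KO and 15.5, 16.9 and 19.3 FPKQ in WT. Pold3, another accessory subunit, overlapped in all groups and passed in neither mutant: the log2 fold change was 0.05 ± 0.06 in R47H (95% interval -0.07 to 0.16; limma, adjusted p = 0.575) and -0.10 ± 0.06 in KO (-0.22 to 0.01; adjusted p = 0.130). The KO fall of Pold3 passed when libraries were scaled to equal sums (log2 -0.18, adjusted p = 0.00842) and when WT was Rep6 to Rep10 (log2 -0.17, adjusted p = 0.0283). The window of Pold3 holds an E2F match after the start.

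In polymerase epsilon, the leading-strand enzyme, both genes of the set fell. The subunits Pole3 and Pole4 were measured outside the set. Pole3 overlapped WT in both mutants and passed in neither, except at equal sums (limma, adjusted p = 0.0393 in R47H and 0.00307 in KO) and in KO under some other settings. Pole4 overlapped WT in R47H, and every KO library lay below every WT library. Pole had 1.80, 1.37, 1.67, 2.14 and 1.35 FPKQ in R47H, 0.860, 0.470, 0.797, 0.718 and 1.19 FPKQ in KO and 3.39, 4.21 and 6.20 FPKQ in WT. Pole fell to 38.0% of its WT mean in R47H and 18.4% in KO, log2 fold changes of -1.01 ± 0.10 and -1.58 ± 0.10 (limma, adjusted p = 3.87e-07 and 3.51e-11). Pole, the catalytic subunit, was among the scarcest members, and its 3 groups did not overlap. Pole2 had 4.38, 4.10, 4.46, 4.65 and 3.63 FPKQ in R47H, 2.98, 2.99, 3.32, 3.75 and 2.90 FPKQ in KO and 5.46, 5.90 and 7.46 FPKQ in WT. Pole2 fell to 69.8% of its WT mean in R47H and 52.4% in KO, log2 fold changes of -0.43 ± 0.06 and -0.76 ± 0.06 (limma, adjusted p = 4.14e-05 and 2.07e-09). Pole2, the accessory subunit, was less reduced than Pole in both mutants, and KO Rep4 lay within the R47H range.

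The clamp PCNA is the ring that tethers polymerases to DNA, and its loader RFC is the 5-subunit machine that opens and closes it. Pcna had 341, 298, 367, 249.7 and 268 FPKQ in R47H, 134, 128, 142, 142 and 158 FPKQ in KO and 333, 377 and 408 FPKQ in WT. Pcna fell to 82.3% of its WT mean in R47H and 38.0% in KO, log2 fold changes of -0.29 ± 0.08 and -1.39 ± 0.08 (limma, adjusted p = 0.00821 and 2.07e-12). Pcna was by far the most abundant member, its R47H Rep1 and Rep3 values lay within the WT range and its KO values stood far below. The R47H fall of Pcna did not pass when WT was Rep1 to Rep5 (log2 -0.21, adjusted p = 0.120). Pclaf had 11.9, 5.99, 9.43, 9.06 and 7.51 FPKQ in R47H, 2.48, 2.46, 2.16, 2.70 and 2.21 FPKQ in KO and 17.02, 21.9 and 27.8 FPKQ in WT. Pclaf fell to 39.2% of its WT mean in R47H and 10.7% in KO, log2 fold changes of -1.28 ± 0.11 and -2.77 ± 0.11 (limma, adjusted p = 7.93e-08 and 3.31e-14). Pclaf, a small PCNA-binding protein, had the largest fall of the 44 members in both mutants on the log2(FPKQ + 1) scale, which understates low genes, and its 3 groups were far apart. As a percentage of WT in R47H, Pole (38.0%) and Clspn (39.1%) stood marginally below Pclaf.

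Of the 5 RFC genes, 4 were lower in R47H and 4 in KO, with medians of -0.20 and -0.53 on the log2 scale. The shares of all tested genes called lower were 7.83% in R47H and 23.7% in KO. Rfc4 had 6.54, 5.07, 6.35, 6.30 and 5.88 FPKQ in R47H, 4.55, 3.81, 3.05, 3.79 and 2.85 FPKQ in KO and 6.80, 8.98 and 11.0 FPKQ in WT. Rfc4 fell to 67.1% of its WT mean in R47H and 40.2% in KO, log2 fold changes of -0.50 ± 0.09 and -1.12 ± 0.09 (limma, adjusted p = 0.000307 and 8.21e-10). Rfc4, a small subunit, moved furthest of the 5 and its groups did not overlap. Rfc1 had 19.2, 18.1, 18.8, 20.9 and 21.6 FPKQ in R47H, 20.2, 17.9, 16.9, 18.8 and 20.1 FPKQ in KO and 19.8, 22.0 and 24.5 FPKQ in WT. Rfc1 fell to 89.3% of its WT mean in R47H and 84.99% in KO, log2 fold changes of -0.16 ± 0.06 and -0.22 ± 0.06 (limma, adjusted p = 0.0471 and 0.00177). Rfc1, the large subunit, overlapped in all groups, and its R47H call was lost without any one of R47H Rep1, Rep2 or Rep3 (adjusted p = 0.0928, 0.152 and 0.108) and without WT Rep1, Rep2, Rep4, Rep7, Rep8, Rep9 or Rep10 or KO Rep2 or Rep4, each left out singly (range 0.0535 to 0.152). Rfc2 had 15.2, 14.9, 14.5, 11.2 and 12.7 FPKQ in R47H, 12.02, 13.5, 11.7, 15.5 and 15.3 FPKQ in KO and 9.66, 12.6 and 14.0 FPKQ in WT. Rfc2, also a small subunit, had the highest point estimates of the tested members, passing in neither mutant: 0.13 ± 0.08 in R47H (95% interval -0.04 to 0.29; limma, adjusted p = 0.291) and 0.12 ± 0.08 in KO (-0.05 to 0.29; adjusted p = 0.233). Rfc2 is overlapped on the opposite strand by Lat2, which averaged 287 ± 62.3 FPKQ in R47H, 183 ± 11.3 FPKQ in KO and 279 ± 30.1 FPKQ in WT (SD), many times the level of Rfc2. Its part in the Rfc2 values was not tested. Rfc3 and Rfc5 stood at 84.3% and 86.0% of WT in R47H and at 62.1% and 67.2% in KO. The Rfc3 call in R47H (adjusted p = 0.0437) did not hold against WT Rep1 to Rep5 or Rep6 to Rep10 alone (0.156 and 0.0820), nor without R47H Rep1, Rep4 or Rep5, WT Rep1, Rep2, Rep5, Rep6, Rep7, Rep8 or Rep10, or KO Rep2 (range 0.0516 to 0.144). The Rfc5 call in R47H (adjusted p = 0.0134) was lost when WT was Rep1 to Rep5 (0.0590).

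Fen1 and Lig1 trim and join Okazaki fragments on the lagging strand. Lig1 had 11.5, 9.26, 9.95, 9.56 and 9.89 FPKQ in R47H, 5.74, 5.23, 5.78, 5.68 and 5.99 FPKQ in KO and 15.3, 18.3 and 19.8 FPKQ in WT. Lig1 fell to 56.0% of its WT mean in R47H and 31.7% in KO, log2 fold changes of -0.78 ± 0.06 and -1.50 ± 0.06 (limma, adjusted p = 7.27e-09 and 8.31e-15). Lig1, the replicative DNA ligase, separated the 3 groups. Fen1 had 26.5, 24.8, 33.0, 22.6 and 22.6 FPKQ in R47H, 17.6, 18.7, 22.5, 19.5 and 22.6 FPKQ in KO and 30.5, 32.4 and 34.5 FPKQ in WT. Fen1 fell to 80.0% of its WT mean in R47H and 62.3% in KO, log2 fold changes of -0.32 ± 0.07 and -0.66 ± 0.07 (limma, adjusted p = 0.00287 and 1.29e-07). Fen1, the flap endonuclease, overlapped WT only through R47H Rep3, and the R47H and KO ranges met.

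Single-stranded DNA at the fork is coated by RPA, a trimer. Rpa2 had 14.8, 15.8, 18.5, 15.6 and 13.4 FPKQ in R47H, 7.27, 8.05, 6.71, 8.35 and 8.23 FPKQ in KO and 19.2, 20.3 and 23.6 FPKQ in WT. Rpa2 fell to 74.8% of its WT mean in R47H and 37.1% in KO, log2 fold changes of -0.40 ± 0.06 and -1.33 ± 0.06 (limma, adjusted p = 0.000105 and 3.86e-13). Rpa2, the middle subunit, fell most of the 3 and did not overlap between groups. Rpa1 had 25.4, 24.4, 27.6, 25.2 and 23.2 FPKQ in R47H, 19.9, 22.2, 23.9, 21.7 and 19.96 FPKQ in KO and 26.6, 29.0 and 30.8 FPKQ in WT. Rpa1 fell to 86.9% of its WT mean in R47H and 74.4% in KO, log2 fold changes of -0.20 ± 0.05 and -0.41 ± 0.05 (limma, adjusted p = 0.00408 and 1.66e-07). Rpa1, the large subunit, moved less, and R47H Rep3 lay within the WT range. Rpa3, the small subunit, averaged 8.43 ± 1.45 FPKQ in R47H, 6.77 ± 1.20 FPKQ in KO and 10.4 ± 1.84 FPKQ in WT (SD), and passed in KO (-0.55 ± 0.12; limma, adjusted p = 0.000584) but not in R47H (-0.28 ± 0.12; adjusted p = 0.112). WT Rep9 was the lowest WT library for Rpa3, and without it the R47H difference passed (adjusted p = 0.0251).

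CAF-1 places new histones on replicated DNA, and both genes measured here fell. Chaf1a had 5.14, 4.22, 4.80, 4.54 and 4.79 FPKQ in R47H, 2.57, 2.52, 2.504, 3.31 and 2.70 FPKQ in KO and 7.17, 8.27 and 9.25 FPKQ in WT. Chaf1a fell to 57.0% of its WT mean in R47H and 33.0% in KO, log2 fold changes of -0.70 ± 0.06 and -1.31 ± 0.06 (limma, adjusted p = 7.93e-08 and 2.51e-13). Chaf1a, the large subunit, separated the 3 groups with KO Rep4 above the other KO libraries. Chaf1b had 8.37, 6.28, 7.75, 7.68 and 6.33 FPKQ in R47H, 5.20, 5.38, 5.22, 5.10 and 4.03 FPKQ in KO and 10.3, 11.0 and 13.5 FPKQ in WT. Chaf1b fell to 64.4% of its WT mean in R47H and 44.1% in KO, log2 fold changes of -0.58 ± 0.07 and -1.04 ± 0.07 (limma, adjusted p = 3.26e-06 and 4.64e-11). Chaf1b, the middle subunit, was also separate in the 3 groups, with KO Rep5 lowest. Clspn, Timeless and Tipin protect stalled and moving forks, and all 3 fell. Clspn had 2.83, 1.44, 2.40, 2.32 and 1.93 FPKQ in R47H, 0.998, 0.821, 0.888, 0.907 and 1.09 FPKQ in KO and 4.83, 5.59 and 6.35 FPKQ in WT. Clspn fell to 39.1% of its WT mean in R47H and 16.8% in KO, log2 fold changes of -1.06 ± 0.08 and -1.76 ± 0.08 (limma, adjusted p = 1.72e-08 and 2.07e-13). Clspn lay below WT in every mutant library and below every R47H library in every KO library. Tipin had 13.2, 12.4, 15.4, 11.5 and 10.2 FPKQ in R47H, 7.81, 9.67, 7.12, 8.67 and 8.86 FPKQ in KO and 15.9, 19.6 and 23.6 FPKQ in WT. Tipin fell to 64.5% of its WT mean in R47H and 43.3% in KO, log2 fold changes of -0.60 ± 0.09 and -1.12 ± 0.09 (limma, adjusted p = 3.52e-05 and 6.22e-10). Tipin moved least of the 3, without overlap, and its partner Timeless stood at 53.8% of WT in R47H and 28.1% in KO.

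The last pair works beside the fork: Slbp binds the stem-loop of histone mRNAs made in S phase, and Ung removes uracil from new DNA. Ung had 2.02, 1.48, 2.21, 1.68 and 1.28 FPKQ in R47H, 1.29, 0.934, 1.252, 0.829 and 1.15 FPKQ in KO and 2.18, 3.09 and 4.10 FPKQ in WT. Ung fell to 55.8% of its WT mean in R47H and 35.2% in KO, log2 fold changes of -0.59 ± 0.09 and -0.97 ± 0.09 (limma, adjusted p = 8.72e-05 and 1.54e-08). Slbp had 31.4, 33.8, 32.7, 27.1 and 30.2 FPKQ in R47H, 21.9, 24.0, 20.4, 23.3 and 23.5 FPKQ in KO and 33.3, 36.3 and 42.3 FPKQ in WT. Slbp fell to 84.2% of its WT mean in R47H and 61.4% in KO, log2 fold changes of -0.24 ± 0.06 and -0.68 ± 0.06 (limma, adjusted p = 0.00511 and 2.99e-09). For both genes 1 R47H library entered the WT range, Rep3 for Ung and Rep2 for Slbp, and every KO library stayed below WT. The R47H fall of Slbp did not pass when WT was Rep1 to Rep5 (adjusted p = 0.0714, limma).

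Set against each other, R47H libraries held more replication RNA than KO libraries. In R47H against KO, 37 of the 44 tested members were higher, 0 lower and 7 did not pass, where 22.8% of all tested genes were higher and 18.0% lower. The median log2 fold change was 0.42, beside 0.03 for all tested genes, and for 25 members every R47H library lay above every KO library, where 12.3% of tested genes did so. On the log2(FPKQ + 1) scale, which understates low members, the largest differences were in Pclaf (1.496 ± 0.13; limma, adjusted p = 2.63e-08), Pcna (1.098 ± 0.09; adjusted p = 8.64e-09) and Mcm5 (1.097 ± 0.07; adjusted p = 1.34e-09). As KO levels in percent of R47H, the scarcer Cdc6 and Mcm10 (39.7% and 40.1%) lay below Mcm5 (42.7%) and Pcna (46.2%). Those that did not pass were Orc2, Gins3, Pola1, Pold3, Rfc1, Rfc2 and Rpa3. Pola1 was near the threshold (0.22 ± 0.09; adjusted p = 0.0511) and Rfc2 showed the smallest difference (0.01 ± 0.09, 95% interval -0.19 to 0.20). Orc6 and Prim2 passed (0.0201 and 0.0239, limma adjusted p), but Orc6 did not without KO Rep1 or Rep4 or without R47H Rep1 or Rep3, and Prim2 did not without KO Rep1 or without R47H Rep1, Rep2 or Rep3 (adjusted p between 0.0505 and 0.0699). Left-out libraries also added calls: Pola1 passed without R47H Rep2, KO Rep3 or WT Rep10, Gins3 without R47H Rep3, Pold3 without R47H Rep4 or Rep5, and Rpa3 without R47H Rep4 (adjusted p between 0.00693 and 0.0472). This contrast uses no WT value except through the spread shared by the model. R47H and KO are separate mutant lines, so a difference of allele and one of line or set of libraries cannot be told apart in it.

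To describe partners in one complex, 10 pairs of members were compared as ratios within each library, which library scaling hardly touches. The pairs were chosen with earlier results of these data known. Their p-values are therefore no independent support for unequal falls of partners. Ratios were tested on log2 values with 1 FPKQ added, by exact two-sided permutation of libraries, and adjusted over the 30 tests of 10 pairs in 3 contrasts. In KO against WT 9 of the 10 ratios passed, in R47H against WT 6, and in R47H against KO 3. The smallest unadjusted p is 0.000333 for 5 against 10 libraries and 0.00794 for 5 against 5. Rpa2 over Rpa1 was 61.9 ± 4.11% in R47H, 36.1 ± 4.93% in KO and 72.1 ± 5.03% in WT (SD; log2 ratio difference -0.20 in R47H and -0.91 in KO, exact permutation test, adjusted p = 0.00300 and 0.00125). All KO libraries lay below all others in this ratio, and in R47H only Rep3 entered the WT range. Pclaf over Pcna was 2.90 ± 0.670% in R47H, 1.72 ± 0.243% in KO and 6.03 ± 0.621% in WT (SD; log2 ratio difference -0.98 in R47H and -1.38 in KO, exact permutation test, adjusted p = 0.00125 and 0.00125). Neither mutant reached the WT range. Rfc4 over Rfc1 was 30.6 ± 3.20% in R47H, 19.2 ± 3.27% in KO and 40.8 ± 6.34% in WT (SD; log2 ratio difference -0.35 in R47H and -0.89 in KO, exact permutation test, adjusted p = 0.00363 and 0.00125). Prim1 over Prim2 was 68.2 ± 20.5% in R47H, 51.0 ± 11.3% in KO and 91.6 ± 9.01% in WT (SD; log2 ratio difference -0.40 in R47H and -0.68 in KO, exact permutation test, adjusted p = 0.0140 and 0.00125). The Prim1 ratio in R47H was widely spread between libraries and did not pass against WT Rep1 to Rep5 or Rep6 to Rep10 alone (adjusted p = 0.0794 and 0.0952, exact permutation test). Pole2 over Pole was 259 ± 30.4% in R47H, 433 ± 152% in KO and 143 ± 27.4% in WT (SD; log2 ratio difference 0.58 in R47H and 0.82 in KO, exact permutation test, adjusted p = 0.00125 and 0.00125), the accessory subunit being relatively more abundant in both mutants and no library overlapping WT. Orc1 over Orc2 was 6.94 ± 1.80% in R47H, 2.33 ± 0.577% in KO and 11.7 ± 2.36% in WT (SD; log2 ratio difference -0.31 in R47H and -0.79 in KO, exact permutation test, adjusted p = 0.00916 and 0.00125). In this ratio R47H Rep1 lay within WT and apart from the other 4, and the R47H difference did not pass when WT was Rep1 to Rep5 (adjusted p = 0.0833, exact permutation test).

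The remaining ratios did not pass in R47H. Pold1 over Pold2 was 98.1 ± 17.04% in R47H, 74.3 ± 11.7% in KO and 104 ± 7.41% in WT (SD; log2 ratio difference -0.09 in R47H and -0.41 in KO, exact permutation test, adjusted p = 0.285 and 0.00222). Chaf1b over Chaf1a was 155 ± 14.6% in R47H, 186 ± 31.1% in KO and 138 ± 15.0% in WT (SD; log2 ratio difference 0.12 in R47H and 0.27 in KO, exact permutation test, adjusted p = 0.171 and 0.0144), with overlap between all groups and no call when WT was Rep1 to Rep5 (adjusted p = 0.124, exact permutation test). Gins2 over Gins3 was 290.04 ± 103% in R47H, 218 ± 31.1% in KO and 248.8 ± 27.3% in WT (SD; log2 ratio difference 0.11 in R47H and -0.25 in KO, exact permutation test, adjusted p = 0.474 and 0.0140). The Gins2 ratio in KO did not pass with 0.1 FPKQ added, nor against WT Rep1 to Rep5 or Rep6 to Rep10 alone (adjusted p = 0.0668, 0.0794 and 0.0560, exact permutation test). Tipin over Timeless was 486 ± 99.4% in R47H, 611 ± 63.2% in KO and 397 ± 56.9% in WT and did not pass in either mutant (adjusted p = 0.332 and 0.0769, exact permutation test), although with 0.1 FPKQ added the KO difference passed (adjusted p = 0.000999). With nothing added, every KO library (527% to 692%) lay above every WT library (320% to 494%) in the Tipin ratio, and R47H overlapped both. In R47H against KO the ratios that passed were Orc1 over Orc2, Rfc4 over Rfc1 and Rpa2 over Rpa1, each higher in R47H. Leaving out 1 library added calls: Pold1 over Pold2 in R47H against WT without R47H Rep5 (adjusted p = 0.0480), Tipin over Timeless in KO without WT Rep6 or Rep8 (0.0434 and 0.0276), and in R47H against KO Pold1 over Pold2 and Pclaf over Pcna without R47H Rep2 (0.0360 and 0.0149), Gins2 over Gins3 without R47H Rep5 (0.0159) and Pole2 over Pole without KO Rep5 (0.0251; all exact permutation tests).

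**Figure D3:**
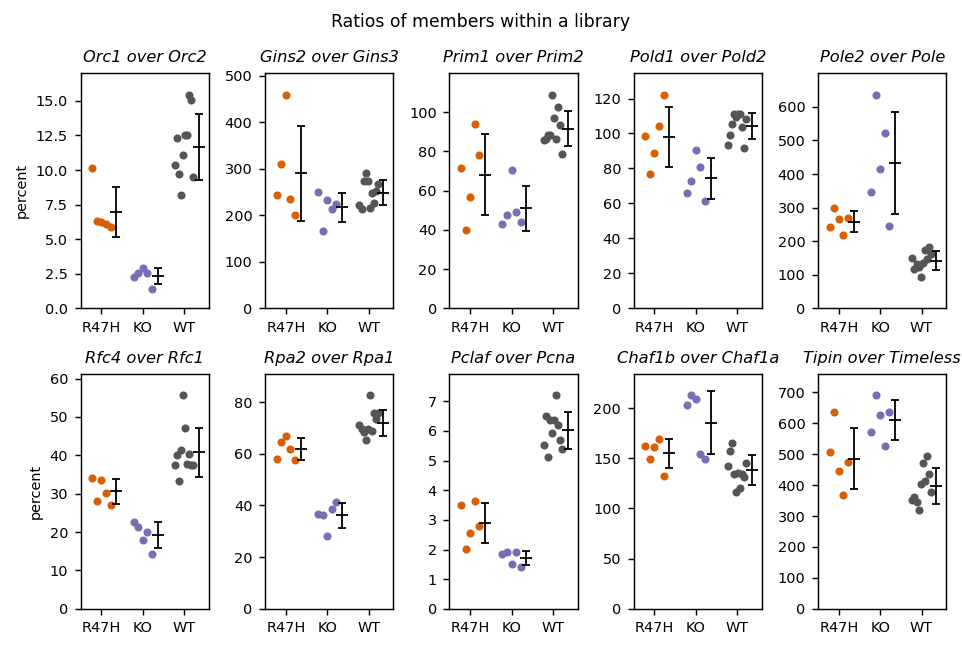
Ratio of 2 members within each library in percent (y axes, from 0) for the 10 pairs, by group, with the group mean and SD as a black bar (n = 5 R47H, 5 KO and 10 WT). KO points lie below WT in most panels and above it for Pole2 over Pole and Tipin over Timeless. R47H overlaps both other groups for Tipin over Timeless, and all groups overlap for Gins2 over Gins3 and Chaf1b over Chaf1a.

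Around the core set, further genes of the pathway were counted by lists. The lists were chosen with earlier results of these data known, so their counts are no independent support for the falls. The counts stand beside 7.83% lower and 13.4% higher among all tested genes in R47H, and 23.7% lower and 28.2% higher in KO. Of 31 tested genes with other roles in nuclear replication, 17 were lower and 2 higher in R47H, and 19 lower and 1 higher in KO (medians -0.26 and -0.24). The falls with the smallest adjusted p in KO were Uhrf1 (-1.02 ± 0.09 in R47H, -2.42 ± 0.09 in KO), which brings maintenance methylation to forks, Asf1b (-0.80 ± 0.10 in R47H, -1.55 ± 0.10 in KO), a histone chaperone, Chtf18 (-0.70 ± 0.08 in R47H, -1.14 ± 0.08 in KO), of an alternative clamp loader, and Wdhd1 (-0.54 ± 0.07 in R47H, -1.02 ± 0.07 in KO), a fork adaptor. Top1, the topoisomerase that relieves torsion, was the exception, called higher in both (0.20 ± 0.06 in R47H and 0.23 ± 0.06 in KO; limma, adjusted p = 0.0183 and 0.00210). Scaling to equal sums ended both Top1 calls (log2 0.08 in R47H and 0.15 in KO), and the R47H call also ended against WT Rep6 to Rep10 alone (log2 0.14, adjusted p = 0.170), after quantile normalization (0.0975) and without R47H Rep1 (0.0565). The other higher gene in R47H, named after its value was seen, was Chtf8 (0.24 ± 0.06), whose call ended at equal sums (log2 0.12) and against WT Rep6 to Rep10 alone (log2 0.11, adjusted p = 0.115). Orc3 and Orc5, like Orc2 subunits of the origin recognition complex, passed in neither mutant, and Orc4 passed in KO (-0.15 ± 0.05) but not against WT Rep6 to Rep10 alone (log2 -0.12, adjusted p = 0.0968).

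Deoxynucleotide supply followed the core set: 7 of 11 tested genes were lower and 0 higher in R47H, and 8 lower and 1 higher in KO (medians -0.53 and -1.13). Leading falls were Tk1 (-1.13 ± 0.11 in R47H, -2.71 ± 0.11 in KO), thymidine kinase, and Rrm2 (-1.22 ± 0.11 in R47H, -2.73 ± 0.11 in KO) and Rrm1 (-0.73 ± 0.06 in R47H, -1.28 ± 0.06 in KO), the S-phase ribonucleotide reductase. Rrm2b, the small reductase subunit used outside S phase, did not pass in R47H (-0.12 ± 0.08) and was higher in KO (0.32 ± 0.08; limma, adjusted p = 0.00137). Among 18 regulators of the G1 to S step, 12 were lower and 0 higher in R47H, and 14 lower and 2 higher in KO (medians -0.35 and -0.69). Ccnd1, the cyclin that growth factors induce, had 42.3, 30.1, 40.2, 39.4 and 32.4 FPKQ in R47H, 7.74, 4.59, 4.68, 6.44 and 6.64 FPKQ in KO and 38.3, 56.0 and 79.4 FPKQ in WT. Every KO value of Ccnd1 lay far below the rest, with log2 fold changes of -0.60 ± 0.16 in R47H and -3.05 ± 0.16 in KO (limma, adjusted p = 0.0101 and 1.30e-12). WT Rep1 to Rep5 had 38.3 to 49.1 FPKQ and WT Rep6 to Rep10 63.0 to 79.4 FPKQ, and the R47H difference did not pass against WT Rep1 to Rep5 alone (log2 -0.26, adjusted p = 0.1599). Next came E2f8 (-0.80 ± 0.08 in R47H, -1.45 ± 0.08 in KO) and E2f7 (-0.75 ± 0.07 in R47H, -1.25 ± 0.07 in KO), repressor E2Fs, and Ccne2 (-0.93 ± 0.12 in R47H, -1.88 ± 0.12 in KO), an S-phase cyclin. Higher in KO were the pocket protein Rb1 (0.39 ± 0.06; adjusted p = 2.57e-05) and the CDK inhibitor Cdkn1b (0.16 ± 0.06; adjusted p = 0.0346), the Cdkn1b call ending at equal sums (0.08) and against WT Rep1 to Rep5 alone (0.10), without the level filter, and without any one of KO Rep1 to Rep4 or WT Rep6, Rep9 or Rep10 (adjusted p = 0.0508 to 0.0802).

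The mitosis list had larger median falls than the replication set. All 16 genes were lower in R47H (median -1.11) and in KO (median -2.03), beside -0.51 and -1.03 for the tested members. Like the other lists, it was chosen with earlier results of these data known, so its larger falls may partly reflect that choice. The smallest adjusted p in KO were those of Ccna2 (-1.30 ± 0.09 in R47H, -2.76 ± 0.09 in KO), Kif11 (-1.16 ± 0.10 in R47H, -2.44 ± 0.10 in KO), Top2a (-1.17 ± 0.11 in R47H, -2.60 ± 0.11 in KO) and Mki67 (-1.15 ± 0.08 in R47H, -2.02 ± 0.08 in KO). Lists outside nuclear replication were mixed. For mitochondrial DNA replication, 0 of 11 tested genes were lower and 3 higher in R47H, and 1 lower and 2 higher in KO, with medians of 0.12 and -0.02. All tested genes had 7.83% lower and 13.4% higher in R47H, and 23.7% lower and 28.2% higher in KO. Ssbp1, the mitochondrial single-strand binding protein, was higher in both (0.31 ± 0.07 in R47H and 0.41 ± 0.07 in KO; limma, adjusted p = 0.00254 and 4.72e-05). Polg, the mitochondrial polymerase, was at 0.18 ± 0.06 in R47H and 0.11 ± 0.06 in KO, Polg2, its accessory subunit, at 0.12 ± 0.12 in R47H and 0.39 ± 0.12 in KO, and the nuclease Mgme1 at 0.26 ± 0.09 in R47H and -0.21 ± 0.09 in KO. The Polg call in R47H was lost without R47H Rep1, Rep2, Rep3 or Rep5 or WT Rep1, Rep2, Rep3 or Rep8 (adjusted p = 0.0534 to 0.107), and the Polg2 call in KO against WT Rep1 to Rep5 alone (0.0782). That of Mgme1 was lost in R47H without any one of R47H Rep1 to Rep3 or WT Rep1 to Rep5 (0.0531 to 0.0939) and in KO without any one of KO Rep1 to Rep3 or WT Rep6 to Rep10 (0.0538 to 0.131). Against 1 WT set alone the Mgme1 difference shrank to 0.08 in R47H (WT Rep6 to Rep10) and -0.04 in KO (WT Rep1 to Rep5), and at equal sums that of Polg to 0.07 in R47H. Of 9 tested repair and translesion polymerase genes, 1 was lower and 0 higher in R47H, and 3 lower and 2 higher in KO. The KO counts were not far from the 23.7% and 28.2% of all tested genes, so they show nothing particular to this list. Polh, the polymerase that bypasses ultraviolet lesions, fell in both (-0.35 ± 0.07 in R47H and -0.70 ± 0.07 in KO), Polk was lower in KO (-0.20 ± 0.05), and Rev3l (0.36 ± 0.08) and Rev1 (0.25 ± 0.05) were higher in KO.

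**Figure D4:**
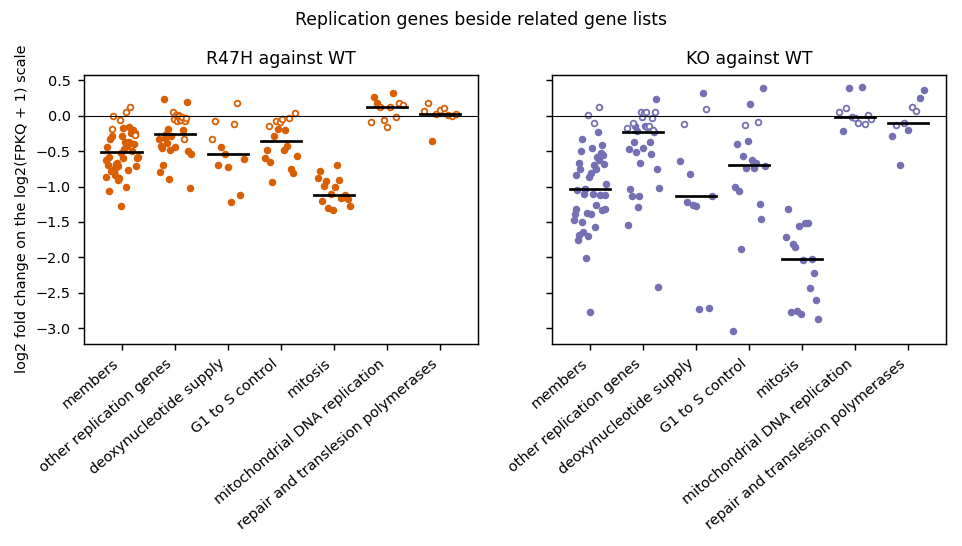
Log2 fold change on the log2(FPKQ + 1) scale (y axis) of each tested gene, by list (x axis), for R47H against WT (left) and KO against WT (right); filled points passed an adjusted p under 0.05 and black lines are medians. The members and the mitosis and deoxynucleotide lists lie mostly below 0, and the mitochondrial and repair lists lie around 0.

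Markers of other marrow cells were measured beside these falls. The 5 stem and progenitor markers Kit, Cd34, Flt3, Myb and Gata2 summed to 3.68 to 5.57 FPKQ in R47H, 3.04 to 4.58 FPKQ in KO and 4.19 to 5.92 FPKQ in WT, and Kit, the 1 that could be tested, was at -0.21 ± 0.10 in R47H and -0.40 ± 0.10 in KO, the KO difference passing (limma, adjusted p = 0.00188). Among monocyte markers Ccr2, a chemokine receptor, fell in both mutants (-0.68 ± 0.14 in R47H and -0.78 ± 0.14 in KO; adjusted p = 0.00120 and 6.81e-05). The 12 neutrophil and precursor markers summed to 88.0 to 154 FPKQ in R47H, 99.9 to 132 FPKQ in KO and 72.3 to 109 FPKQ in WT. Of the 5 tested, 2 were higher in R47H and 1 in KO, beside 13.4% and 28.2% of all tested genes. Csf3r was higher in both (0.53 ± 0.08 in R47H and 0.89 ± 0.08 in KO), while Elane, Mpo and Prtn3 averaged at most about 1 FPKQ and Ly6g was at or near 0. Summed markers of T and NK cells (0.225 to 0.468 FPKQ in R47H, 0.146 to 0.317 FPKQ in KO and 0.243 to 0.880 FPKQ in WT), erythroid cells (0.0241 to 0.544 FPKQ in R47H, 0.3605 to 0.638 FPKQ in KO and 0.0697 to 0.558 FPKQ in WT), mast cells and basophils (0 to 0.665 FPKQ in R47H, 0.226 to 0.626 FPKQ in KO and 0.158 to 0.760 FPKQ in WT) and stroma (0.0323 to 0.562 FPKQ in R47H, 0.473 to 1.71 FPKQ in KO and 0.0175 to 0.257 FPKQ in WT) were near 0, and those of B cells and dendritic cells did not exceed 2.67 and 2.64 FPKQ in any library. The stroma sum, though low, was higher in every KO library (0.473 FPKQ or more) than in every WT library (0.257 FPKQ or less). The part of these markers in the replication result was not tested.

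Libraries of one group also differed among themselves. Member levels had a median coefficient of variation of 13.8% over the R47H libraries, 10.7% over KO and 8.26% over WT. R47H Rep3 was the highest R47H library for 21 of the 44 tested members and R47H Rep1 for 15, and R47H Rep2 was the lowest for 18. Trem2 stood at 673, 772 and 794 FPKQ in R47H Rep1, Rep2 and Rep3. It stood at 496 and 527 FPKQ in R47H Rep4 and Rep5, each the lowest R47H library for 11 members. A link between Trem2 and member levels across these libraries was not tested. Among WT libraries, Rep3 and Rep10 were lowest for 14 and 13 members. Per FPKQ, depth was 52.1 ± 3.67 fragments in R47H and 51.4 ± 3.87 in KO, against 60.5 ± 5.16 in WT (SD; at 1 FPKQ in 2 kb), and its part was not tested. On the genome, 14 of the 45 genes are overlapped by another coding gene in GENCODE, 12 of them on the opposite strand (among them Mcm7 by Cops6, Rfc4 by Eif4a2 and Rfc5 by Wsb2). The libraries were strand-specific per the labels, whether counting used the strand is not known from these sources, and the values of these genes are uncertain to that extent. Pcna has 2 processed pseudogenes, listed at 0.232 and 0 FPKQ.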

How the data were processed

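Poly-A RNA of 20 macrophage libraries was sequenced, and the authors deposited 1 table per library with 51456 gene symbols and an FPKQ value each, handled here as an FPKM-type level. RSEM and the genome GRCm38 are named in the submitters' processing notes; their versions and settings, and how FPKQ is defined, were not given in the sources used here. RSEM may divide fragments between similar genes. The 45 members, the gene lists and the pairs were chosen with earlier results of these data known. Values were taken as log2(FPKQ + 1), so fold changes of low genes are understated. The 10843 genes that averaged 1 FPKQ or more across libraries were fitted with limma 3.58.1 in R 4.3.3 (lmFit, eBayes with a trend) in 1 model of R47H, KO and WT, with Benjamini-Hochberg adjustment over all of them and a threshold of 0.05. The fit was tested on simulated data with known changes. Trem2 and ratios within a library were tested by exact two-sided permutation in Python 3.11.15 with numpy 2.4.6 and pandas 2.3.3 (3003 splits for 5 against 10 libraries, 252 for 5 against 5); figures used matplotlib 3.10.9.

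Named genes were chosen by rule: in each complex the members with the largest and smallest KO fold change, members not lower in KO and both partners of a pair whose ratio passed in KO; in each list the 4 genes with the smallest adjusted p in KO and any called against the list's median. Depth came from genes with a single GENCODE M21 transcript of at least 600 bases, where 84.0% to 91.0% of low values were whole fragments within 0.1 fragment; with that share incomplete and effective lengths unknown, no count test was run. Some values that these rules would name are not reported here. Promoter windows of 37 members came from RefSeq (GRCm38.p6). Alternatives covered the WT set, pseudocount 0.1, the level filter (none, or a mean of 5 FPKQ), scaling, the groups fitted, robust moderation, a replicate block and each library left out. No 2 libraries held identical values.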

Additional observations from a re-analysis of the deposited data

Results flagged for a closer look

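Single libraries stood apart from the others of their group by Dixon's test at the 95% level for 11 of 138 sets of values examined, 45 members and Trem2 in 3 groups each, and chance alone would give about 1 in 20. In R47H, Orc1 in R47H Rep1 was 0.989 FPKQ with the other libraries of its group between 0.489 and 0.625, and Prim2 in R47H Rep4 was 5.93 FPKQ with the other libraries of its group between 7.33 and 7.75. In KO, Cdt1 in KO Rep5 was 17.7 FPKQ with the other libraries of its group between 14.0 and 15.0. Prim1 in KO Rep3 was 4.70 FPKQ with the other libraries of its group between 2.39 and 2.93, the highest of the group. Chaf1a in KO Rep4 was 3.31 FPKQ with the other libraries of its group between 2.504 and 2.70, and Chaf1b in KO Rep5 was 4.03 FPKQ with the other libraries of its group between 5.10 and 5.38. In WT, Mcm3 in WT Rep5 was 37.9 FPKQ with the other libraries of its group between 28.4 and 33.4. Pola2 in WT Rep6 was 13.8 FPKQ with the other libraries of its group between 12.2 and 12.8. Pole2 in WT Rep9 was 7.46 FPKQ with the other libraries of its group between 5.46 and 6.38, and Rfc2 in WT Rep9 was 9.66 FPKQ with the other libraries of its group between 11.8 and 14.0. Chaf1b in WT Rep2 was 13.5 FPKQ with the other libraries of its group between 10.3 and 11.8. No library was set apart for more than 2 members.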

How the results depend on the processing

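Members lower in R47H, lower in KO and higher in R47H than in KO numbered 38, 41 and 37. They numbered 32, 41 and 37 with WT Rep1 to Rep5 alone, 36, 42 and 37 with WT Rep6 to Rep10 alone, 28, 31 and 29 at a mean of at least 5 FPKQ (fewer members tested), 40, 42 and 37 with libraries scaled to equal sums, 38, 41 and 37 after quantile normalization, and 36 to 39, 41 to 41 and 35 to 39 with each library left out in turn. With the replicate number as a block they numbered 32, 41 and 37, but the labels do not pair numbers across genotypes, same-numbered libraries correlated at -0.25 to 0.34 in their deviations from the group means, and the numbers were taken not to pair the animals. No member changed sign past the threshold under any alternative; 54 of 3930 alternative values lost a call and 15 gained one. Equal sums moved the median of all genes in R47H against WT by -0.11 and the split of its calls to 1830 lower and 475 higher, beside 849 and 1452 as deposited and 1071 and 1013 after quantile normalization; in KO against WT the split became 3532 and 2001, beside 2573 and 3063. Ratios past the threshold ranged 6 to 7 in R47H, 9 to 10 in KO and 3 to 5 in R47H against KO when 1 library was left out. The Trem2 difference in R47H was -0.27 against WT Rep6 to Rep10 (p = 0.135, exact permutation test). The list alternatives were chosen after seeing the data. At a mean of at least 5 FPKQ, 11 other replication genes were lower in R47H, beside 17, and of the remaining list counts 38 of 280 moved by over 1.5 times under the other settings and 37 of 560 with a library left out. The cause of these changes was not tested.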

Other observations

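The clamp was also set against the helicase. Within a library, Pcna was 763 ± 117% of Mcm6 in R47H, 569 ± 42.6% in KO and 563 ± 47.4% in WT (SD, n = 5, 5 and 10). The R47H libraries ran from 610.3% to 862%, the KO libraries from 519% to 615% and the WT libraries from 483% to 637%, so R47H was higher on average, its lowest library lay within the KO and WT ranges, and KO and WT overlapped. Mcm6 over Mcm2, 2 subunits of the same ring, was 473 ± 39.1% in R47H, 394 ± 62.0% in KO and 445 ± 21.4% in WT, with overlap between all groups. Both ratios were chosen after their values were seen and were not tested.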
